A study of Mus musculus with 2 samples.

Results

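Peaks of the histone mark H4K16ac that lay close together in wild-type macrophages were taken from the wild-type peak list. Peaks with a −log10 q of at least 1.301 (a q-value of at most 0.05) were kept, neighbours with a gap of at most 12.5 kb were joined, and a joined stretch holding 4 or more peaks was called a dense stretch. The wild-type list held 58229 peaks, of which 27288 passed the threshold and 2651, or 9.71% of those, were members of 491 dense stretches. The number and spacing of the wild-type peaks chose the stretches, so those values are a description and not a finding. The widest gap joined inside a stretch was 12489 bp and the narrowest gap left beside one was 12509 bp. The weakest member had a −log10 q of 1.31, and the strongest wild-type peak under the threshold had 1.30.

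Macrophages were raised from mouse bone marrow in M-CSF at 20 ng/ml, a factor that turns marrow cells into macrophages. Both groups received R848 at 100 ng/ml for 2 h; R848 is a small molecule that activates the RNA-sensing receptor TLR7. The groups were wild type (WT) and KAT8-cKO, described in the labels as KAT8-deficient, with 1 library each, and CUT&Tag was used, where a transposase guided by an H4K16ac antibody cuts and tags nearby DNA. The KAT8-cKO label was read as a conditional knockout. The sources used here give neither the Cre line nor the ages of the mice nor how complete the deletion was, and unstimulated cells were not analysed here. With 1 library per group no difference between genotypes could be tested, and every interval below is a 95% interval for counting error over peaks or genes, not for variation between animals.

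KAT8 (also called MOF) is an acetyltransferase that works in the MSL and NSL complexes and places H4K16ac, an acetyl mark on the tail of histone H4. The mark loosens the packing of neighbouring nucleosomes and is found over active genes and their starts. Dense groups of acetylated regions are often used to find genes on which a cell type relies, but a rule on spacing alone also takes arrays of near-identical gene copies, where reads are hard to place.

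Some promoter sequences from the dense stretches show how they differ; each is at or beside a member. They are RefSeq promoter sequences of GRCm38.p6 (mm10), cut to the bases just before the annotated start, written on the gene's strand, with CG dinucleotides in capitals. A first set of 4 comes from an array of type I interferon genes around Ifnz on chromosome 4, where the promoters repeat. Gm13290 (chr4:88773714-88773833, plus strand) and Gm13279 (chr4:88797117-88797236, plus strand) lie 23.4 kb apart and were identical over all 300 bases of the table, and so were Gm13272 (chr4:88779730-88779849, plus strand) and Gm13285 (chr4:88800200-88800319, plus strand), 20.5 kb apart.
Gm13290: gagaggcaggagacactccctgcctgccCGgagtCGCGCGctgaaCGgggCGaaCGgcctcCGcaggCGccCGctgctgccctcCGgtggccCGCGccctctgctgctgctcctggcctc
Gm13279: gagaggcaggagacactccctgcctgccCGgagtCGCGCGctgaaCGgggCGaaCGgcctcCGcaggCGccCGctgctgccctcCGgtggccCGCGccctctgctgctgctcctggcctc
Gm13272: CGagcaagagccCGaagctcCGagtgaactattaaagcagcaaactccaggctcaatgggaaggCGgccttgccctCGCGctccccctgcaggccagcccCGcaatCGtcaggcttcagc
Gm13285: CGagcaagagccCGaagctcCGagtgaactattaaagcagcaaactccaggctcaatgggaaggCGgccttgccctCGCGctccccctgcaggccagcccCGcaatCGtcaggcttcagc

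Another repeated pair came from an array of predicted genes on chromosome 6, where Gm40369 (chr6:47653842-47653991, plus strand) and Gm40367 (chr6:47662442-47662591, plus strand) were identical over 300 of 300 bases at a distance of 8.60 kb. Both have few CG dinucleotides, 2 in the 150 bases shown. Sp110 (chr1:85598811-85598960, minus strand), which encodes an interferon-induced nuclear body protein, lies in the stretch with the most members and has 3.
Gm40369: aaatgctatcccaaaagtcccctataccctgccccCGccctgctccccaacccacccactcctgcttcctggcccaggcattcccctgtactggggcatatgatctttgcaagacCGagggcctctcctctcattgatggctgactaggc
Gm40367: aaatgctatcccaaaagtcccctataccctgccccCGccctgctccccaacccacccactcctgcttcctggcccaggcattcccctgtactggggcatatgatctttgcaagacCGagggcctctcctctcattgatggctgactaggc
Sp110: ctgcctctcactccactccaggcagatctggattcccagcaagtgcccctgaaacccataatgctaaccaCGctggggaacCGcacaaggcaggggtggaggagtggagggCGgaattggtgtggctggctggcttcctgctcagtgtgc

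The last set comes from stretches over single-copy genes or clustered but distinct ones, and is rich in CG. H4c1 (chr13:23761250-23761399, minus strand) encodes histone H4 itself, the protein that carries the mark, and H1f2 (chr13:23738657-23738806, plus strand) a linker histone of the same stretch. Phf20 (chr2:156196497-156196646, plus strand) encodes a subunit of the KAT8-containing NSL complex. The bases shown hold 18, 12 and 15 CG dinucleotides for H4c1, H1f2 and Phf20. The 120 bases shown of Gm13290 and Gm13279 hold 13 each, and those of Gm13272 and Gm13285 hold 8 each. Promoters of arrays were thus not all poor in CG.
H4c1: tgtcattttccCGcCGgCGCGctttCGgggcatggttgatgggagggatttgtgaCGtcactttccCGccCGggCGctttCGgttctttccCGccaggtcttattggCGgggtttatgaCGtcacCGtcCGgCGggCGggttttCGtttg
H1f2: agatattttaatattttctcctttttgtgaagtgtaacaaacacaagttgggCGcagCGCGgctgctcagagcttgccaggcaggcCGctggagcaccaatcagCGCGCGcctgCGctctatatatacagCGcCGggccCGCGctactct
Phf20: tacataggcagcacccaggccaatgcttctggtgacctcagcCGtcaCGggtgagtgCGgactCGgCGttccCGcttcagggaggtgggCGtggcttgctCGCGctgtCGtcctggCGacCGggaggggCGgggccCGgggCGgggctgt

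The dense stretches were mostly short and thinly covered. Their median length was 23304 bp (2980 to 182570), and the median summed peak width per stretch was 1944 bp (816 to 24756), so that peaks covered a median of 8.48% of a stretch. In all they spanned 12.6 Mb, of which 1.18 Mb, or 9.36%, lay under peaks. Neighbouring members were a median of 5162 bp apart. Members had a median width of 375 bp, against 358 bp for the 24637 wild-type peaks past the threshold outside dense stretches. The median fold over the peak caller's background was 3.08 for members and 3.38 for the others, with a median −log10 q of 2.48 against 2.17. Fold and q-value come from the authors' peak caller and describe peaks within 1 list only.

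Most stretches just met the minimum: 283 held 4 peaks, 113 held 5 and 64 held 6 or 7. The remaining 31 held 8 or more, up to 54, and with 548 peaks they supplied 20.7% of all members. These 31 differed so much from the other 460 in content that the groups are described apart below. The division at 8 peaks was chosen after the values were seen.

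The KAT8-cKO list, cut at the same q-value, held 25900 of 55149 peaks, and 1509 of them lay in the wild-type dense stretches, or 0.569 per member (0.534 to 0.606). The median stretch held 2 KAT8-cKO peaks. In 431 stretches there were fewer KAT8-cKO than wild-type peaks, in 40 the numbers were equal and in 20 there were more. No KAT8-cKO peak past the threshold fell in 52 stretches, but only 12 of them had none of any strength. Since the stretches were chosen for many wild-type peaks, fewer peaks in any other list is what the choice alone favours, and this ratio is therefore set beside the same rule run on the KAT8-cKO list below.

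**Figure D1:**
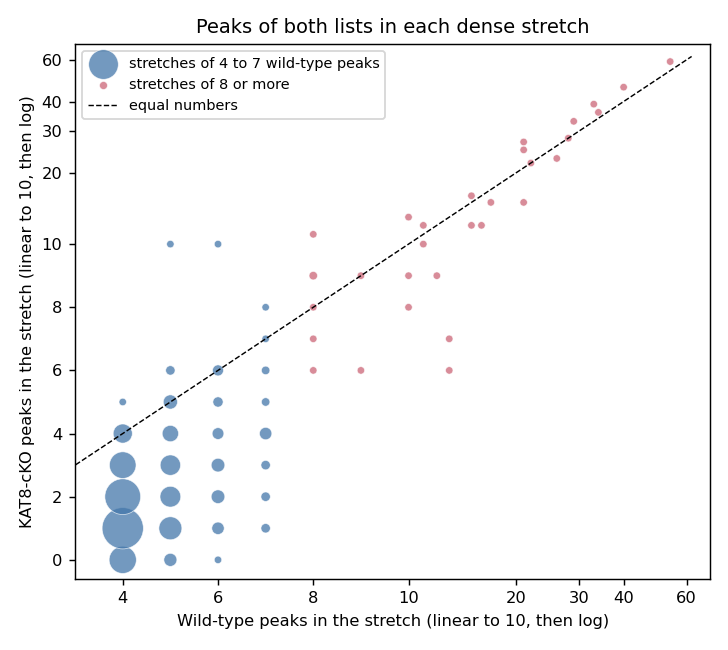
Peaks past the q-value threshold in each of the 491 dense stretches, wild type on the x axis and KAT8-cKO on the y axis, both linear to 10 and logarithmic above. Each point is a pair of counts with an area that grows with the number of stretches, and the dashed line marks equal numbers; most stretches of 4 to 7 peaks (blue) lie under the line, and the 31 of 8 or more (red) lie around it.

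The 31 large stretches held as many KAT8-cKO as wild-type peaks, 547 against 548, a ratio of 0.998 (0.887 to 1.12). In 14 of them KAT8-cKO peaks were fewer, in 4 equal and in 13 more numerous. In the 460 stretches of 4 to 7 peaks there were 962 KAT8-cKO peaks to 2103 members, a ratio of 0.457 (0.424 to 0.494), with fewer in 417, equal numbers in 36 and more in 7. The ratio was 0.408 (0.366 to 0.455) in stretches of 4, 0.497 with 5 and 0.539 (0.458 to 0.636) with 6 or 7, higher where wild-type peaks were more numerous. Just outside the rule, 913 clusters of 3 wild-type peaks had 0.412 and the 15230 single peaks had 0.390. These ratios count KAT8-cKO peaks anywhere in a cluster, also in its gaps, and a single peak has no gap. Wild-type peaks sharing at least 1 bp with a KAT8-cKO peak past the threshold were 37.8% of single peaks. They were 35.2% in clusters of 3, 33.7% in stretches of 4, 42.1% with 5 and 44.6% with 6 or 7.

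The same rule run on the KAT8-cKO list gave the opposite direction. It found 318 stretches with 1986 KAT8-cKO peaks, which held 1254 wild-type peaks, 0.631 wild-type peaks per KAT8-cKO peak (0.588 to 0.678). Among stretches of 4 to 7 the value was 0.531, and in the 38 of 8 or more it was 0.805 (0.722 to 0.897). Each list thus had fewer peaks in stretches set by the other, and the ratio in the smaller wild-type stretches cannot be told apart from the effect of choosing them on that list. Of the wild-type stretches, 116 (23.6%) touched a KAT8-cKO stretch, and of the KAT8-cKO stretches 109 (34.3%) touched a wild-type one. All 31 large wild-type stretches did so, against 85 of the 460 smaller ones (18.5%).

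**Figure D2:**
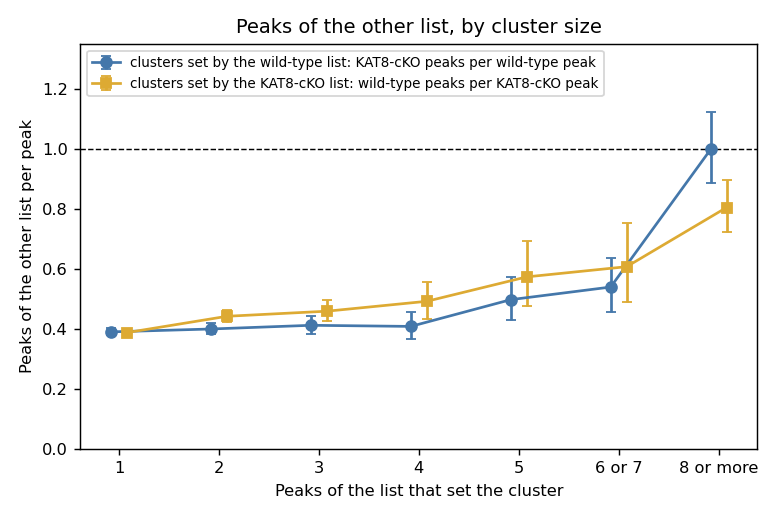
Peaks of the other list per peak (y axis) in clusters grouped by the number of peaks of the list that set them (x axis), for clusters set by the wild-type list (blue) and by the KAT8-cKO list (yellow), with 95% intervals for counting error. Both lines start near 0.390 at single peaks and rise with cluster size, to 0.998 and 0.805 at 8 or more. Peaks of the other list in the gaps of a cluster are counted, and a single peak has no gap.

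A member was called overlapped if at least 1 bp of it lay under a KAT8-cKO peak past the threshold. Of all 27288 wild-type peaks, 38.0% were overlapped. The share was 38.0% (36.0 to 40.1) of members in stretches of 4 to 7, the same as the background, and 78.3% (74.6 to 81.5) of members in stretches of 8 or more. Counting KAT8-cKO peaks of any strength, 50.1% of all wild-type peaks, 53.8% of members in stretches of 4 to 7 and 83.0% of those in stretches of 8 or more were overlapped.

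The overlap depends strongly on how strong a wild-type peak is, so it was also read within 5 equal groups of −log10 q. In the weakest group 18.8% (15.4 to 22.7) of members in stretches of 4 to 7 and 15.4% (14.5 to 16.5) of peaks outside were overlapped. The shares were 32.7% (28.3 to 37.5) and 25.9% (24.7 to 27.1) in the middle group, and 78.1% (73.8 to 81.9) and 83.2% (82.1 to 84.2) in the strongest. Between members of the small stretches and other peaks the intervals met in the weakest group, while members lay higher in the middle group and lower in the strongest. Members of the large stretches were overlapped more often in every group, 52.4% (37.7 to 66.6) in the weakest and 94.4% (91.0 to 96.6) in the strongest. They were also stronger, with 49.3% of them in the strongest group.

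**Figure D3:**
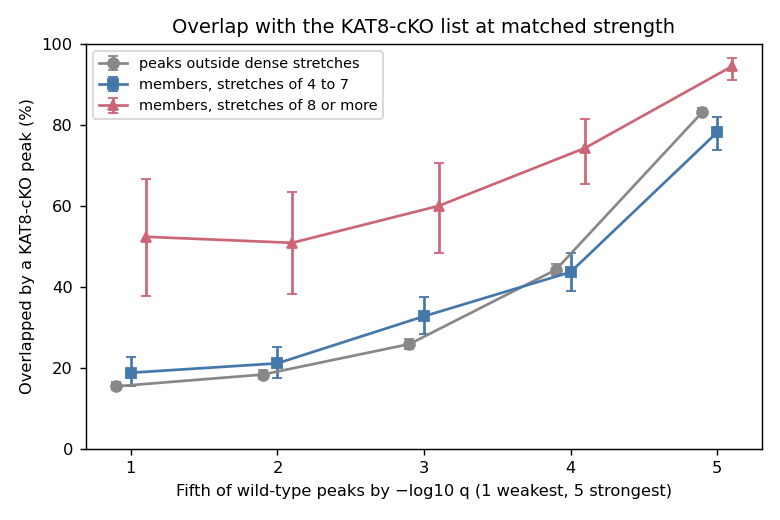
Percent of wild-type peaks overlapped by a KAT8-cKO peak (y axis) in 5 equal groups of wild-type −log10 q (x axis), for peaks outside dense stretches (grey), members of stretches of 4 to 7 (blue) and members of stretches of 8 or more (red), with 95% Wilson intervals. All 3 lines end higher in the strongest group than in the weakest, blue and grey run close together, and red lies above both, from 52.4% to 94.4%.

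In the large stretches 58.0% of members lay outside protein-coding genes, and 11 of the 31 overlapped no protein-coding gene. The 31 stretches formed 15 loci on 9 chromosomes when stretches within 1 Mb were joined, and the 2 largest loci alone held 14 stretches and 278 peaks, or 50.7% of their members. Of the 49 protein-coding genes they overlapped, 37 (75.5%, 61.9 to 85.4) carry a provisional symbol (Gm, LOC or Rik), against 8.62% of all protein-coding genes and 4.92% (3.65 to 6.61) of the 833 in stretches of 4 to 7. Of the 26 promoters under their members, 14 (53.8%, 35.5 to 71.2) had at least 90% of their 30-base words also in another promoter of the RefSeq table, against 2.80% of all promoters and 0.826% in stretches of 4 to 7 (4 of 484). How reads that match several places were treated is not stated, and peak counts in these loci are uncertain for that reason.

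The largest locus, on chromosome 1 at 84955275 to 85653624 (mm10), held 7 stretches with 149 wild-type and 167 KAT8-cKO peaks. It contains Sp110, Sp140 and Sp100, whose proteins sit in nuclear bodies and are induced by interferon, and many predicted genes around them. Its longest stretch (85478948 to 85653624) had 54 members and 59 KAT8-cKO peaks, and 47 of the 54 were overlapped. Only 4 of these 54 members lay within 1 kb of a protein-coding gene end, and 6 lay within 1 kb of a listed start. The peaks thus ran through the array and not only at starts. Neighbouring stretches, over C130026I21Rik and A530032D15Rik, had 33 and 39, and 21 and 27, wild-type and KAT8-cKO peaks.

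The next locus lies on chromosome 8 at 19698501 to 20835592, with 7 stretches, 129 wild-type and 142 KAT8-cKO peaks. Its genes are predicted ones, among them Gm15319, Gm40469, Gm21119 and 4930467E23Rik. The stretch over Gm15319 was the longest of all, 182570 bp, with 40 members and 46 KAT8-cKO peaks, and 30 of the 40 were overlapped. A further stretch of 11 members at 20069489 to 20103954 covered no annotated gene and held 12 KAT8-cKO peaks.

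Several large stretches covered noncoding RNA genes that exist in many copies. On chromosome 8 at 123538647 to 123601502, 13 members lay among 37 annotated genes of the array of 5S ribosomal RNA, the small RNA of the large ribosomal subunit, and 7 KAT8-cKO peaks lay there. Those 37 are 37 of the 63 rRNA genes of the annotation. Folds of the 13 members were 2.11 to 3.61 and 5 were overlapped. On chromosome 7 at 59719707 to 59896549, 33 members and 34 KAT8-cKO peaks ran along Snhg14, the host transcript of the imprinted Snord116 small nucleolar RNA copies. On chromosome 6 at 47652986 to 47799544, 47 members and 38 KAT8-cKO peaks lay around Rn4.5s, the Y RNA genes Rny1 and Rny3, and the endoplasmic reticulum chaperone gene Pdia4.

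Others covered no gene. At 3000171 to 3038284 on chromosome 9, near the centromeric end, 28 members and 28 KAT8-cKO peaks lay in a region without any annotated gene. All 28 members were overlapped, and −log10 q reached 2572, the highest of any member. On the X chromosome at 94877918 to 94917850, 9 members and 9 KAT8-cKO peaks were also free of genes. Leaving out all peaks with a −log10 q of at least 50 removed 1 of the 491 stretches and left the ratio of KAT8-cKO to wild-type peaks at 0.560.

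The remaining large loci held protein-coding genes. A stretch over Sfi1, which encodes a centrin-binding protein of the spindle pole, on chromosome 11 (3123919 to 3199622) had 34 members and 36 KAT8-cKO peaks and was 30.3% covered by members. The zinc finger genes Zfp978 and Zfp982 on chromosome 4 had 27 and 23, the Gm10354 region with the Speer8-ps1 pseudogene on chromosome 5 had 15 and 12, and a group of predicted genes on chromosome 8 (55113808 to 55383098) had 25 and 18. Mroh2a, Hjurp (a chaperone of the centromeric histone) and Trpm8 on chromosome 1 shared a stretch with 10 and 9. Pisd, an enzyme of mitochondrial phospholipid synthesis, on chromosome 5 had 8 and 9, and so did Erdr1 on the X chromosome.

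The array of type I interferon genes on chromosome 4 (88757544 to 88806478) had most of its members near gene starts. It overlapped 14 protein-coding genes, the most of any stretch. Of its 13 members, 12 lay within 1 kb of a listed start, against 44 of all 548 members in large stretches (8.03%) and 23.5% of all wild-type peaks. With 14 genes in 48935 bp, windows of 1 kb on both sides of each start take in a large part of the array. The spacing of the genes alone thus favours a high share. Folds of the 13 members were 2.67 to 3.87 in wild type. It held 6 KAT8-cKO peaks past the threshold and 10 weaker ones, and 4 of the 13 were overlapped by one past it. By a KAT8-cKO peak of any strength 11 of the 13 were overlapped. KAT8-cKO folds were 2.58 to 4.60 past the threshold and 2.15 to 2.60 under it.

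The 12 promoters of this array that were compared fell into 3 groups of near-identical sequence, with at least 297 of 300 bases the same within a group. The first group, Gm13290, Gm13289 and Gm13279, has 28 or 29 CG dinucleotides per 300 bases. All 3 lay under a member, with wild-type folds of 2.94, 3.13 and 3.87, and had KAT8-cKO folds of 3.65, 2.60 and 2.32, of which the last missed the threshold with a −log10 q of 0.663. The second group, Gm13283, Gm13272, Gm13285 and Gm13287, has 22 to 25; all 4 lay under a member (folds 2.76, 2.76, 2.82 and 3.29), and 0 of the 4 had a KAT8-cKO peak past the threshold. Among them Gm13283 and Gm13287 had a weaker one, with folds of 2.60 and 2.15. The third group, Ifnz and Gm13276, Gm13277, Gm13278 and Gm13288, has 6 or 7 CG dinucleotides, and only Gm13288 of the 5 lay under a member, with a wild-type fold of 2.96 and a weaker KAT8-cKO peak of 2.50. Here 1 of the 5 also had a KAT8-cKO peak past the threshold, Gm13276, with a fold of 2.58, and Gm13278 had a weaker KAT8-cKO peak of fold 2.15. No wild-type peak of any strength lay over the 300 bases of either promoter. Both KAT8-cKO peaks nevertheless overlapped a member that began past those 300 bases, with wild-type folds of 3.67 and 2.75. The lack of a wild-type peak thus holds for the 300 bases only. Promoters with the same sequence thus had peaks of different strength in the same list, and so had the group of 4 on chromosome 6: Gm40369, Gm40367, Gm36327 and Gm40364, identical over 300 bases with 3 CG dinucleotides, had wild-type folds of 2.34, 1.81, 1.80 and 1.85.

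**Figure D4:**
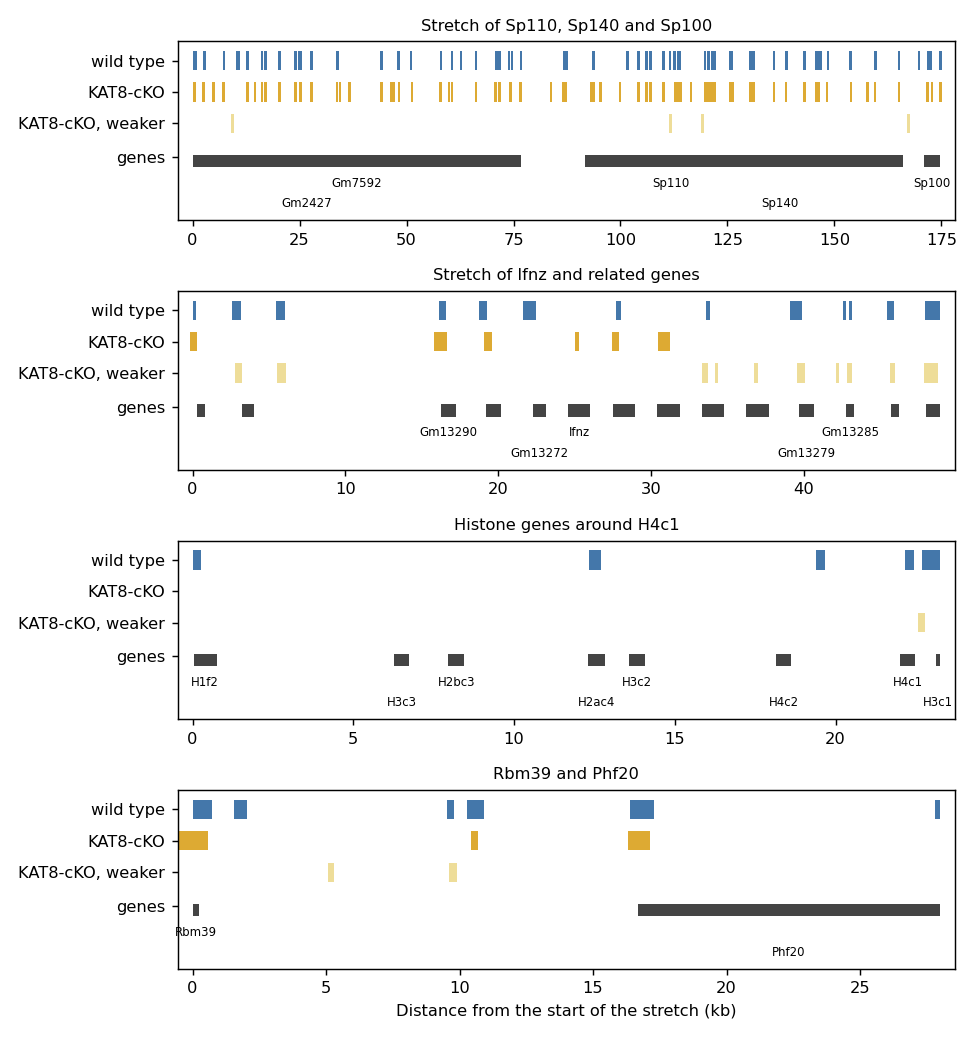
Peaks and protein-coding genes in 4 dense stretches, by distance from the start of the stretch in kb (x axis): wild-type members, KAT8-cKO peaks past the threshold and weaker KAT8-cKO peaks, with gene bodies in black and selected names. The Sp110 stretch has 54 and 59 peaks throughout, the Ifnz array 13 and 6 with 10 weaker, the histone stretch 5 and 0 with 1 weaker, and the Phf20 stretch 6 and 3 with 2 weaker.

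The 460 stretches of 4 to 7 peaks were gene-rich. Protein-coding genes had 42.1 midpoints per Mb in them, against 8.04 per Mb of the genome, 26.0 in clusters of 2 or 3 wild-type peaks and 20.6 in the large stretches. A rule on the spacing of peaks is not independent of the spacing of genes. They overlapped 833 protein-coding genes. A stretch overlapped a median of 1, 228 of the 460 overlapped 2 or more, 104 overlapped 3 or more and 54 overlapped none. Transfer RNA genes had 2.77 midpoints per Mb against 0.150 in the genome, but all 30 of them lay in 6 stretches.

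Over all 491 stretches, 878 of 21887 protein-coding genes (4.01%) were overlapped, and 668 (3.05%) had a member within 1 kb of an annotated end. Of all wild-type peaks past the threshold, 28.1% lay within 1 kb of a protein-coding gene end. The share was 30.1% (28.2 to 32.1) of members in stretches of 4 to 7 and 10.9% (8.60 to 13.8) in stretches of 8 or more. Members of the small stretches lay inside gene bodies in 885 cases and outside genes in 585. In 148 of the 460 small stretches no member lay at a gene end, and in 16 every member did.

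**Figure D5:**
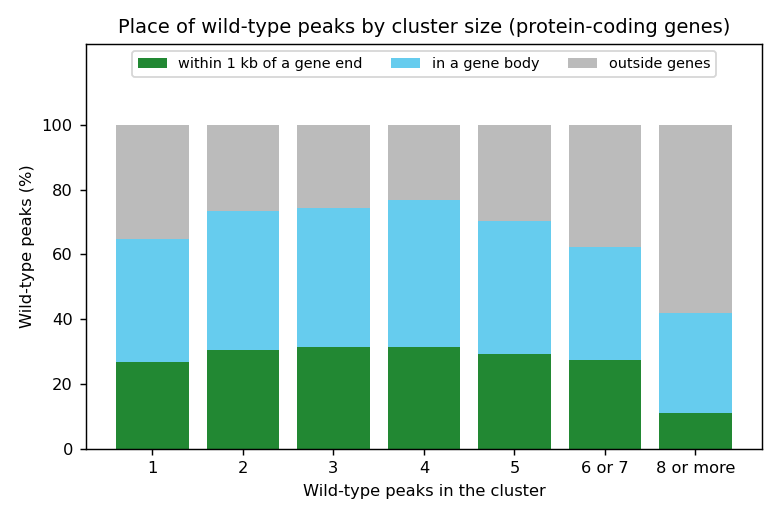
Percent of wild-type peaks (y axis) within 1 kb of a protein-coding gene end (green), elsewhere in a gene body (blue) and outside genes (grey), by the number of wild-type peaks in the cluster (x axis). Gene ends hold 31.4% of peaks in stretches of 4 and 10.9% in those of 8 or more, where most peaks lie outside genes.

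Whether a member was overlapped by a KAT8-cKO peak varied with its place. In stretches of 4 to 7, 49.0% (45.1 to 52.9) of members at gene ends were overlapped, 29.6% (26.7 to 32.7) of those in gene bodies and 39.0% (35.1 to 43.0) of those outside genes. For peaks outside dense stretches the shares were 61.2% (60.1 to 62.4), 26.5% (25.7 to 27.4) and 28.8% (27.8 to 29.8). Members at gene ends were also weaker than other peaks at gene ends, with a median −log10 q of 2.72 against 3.33, and the part of strength in this difference was not tested. In the large stretches the shares were 68.3%, 78.8% and 79.9% in the same order.

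The promoters under members of the small stretches, 484 of 415 genes, had a median of 21 CG dinucleotides per 300 bases. This lay between the 24 of promoters under other wild-type peaks and the 6 of promoters under none, with 13 over all 21263 promoters. Promoters under members of the large stretches had a median of 6. A search for short words on both strands found CCGGAAG, a core of ETS factor sites, in 23.3% (19.8 to 27.3) of the promoters in small stretches, against 22.7% under other wild-type peaks and 11.6% of all promoters. GAGGAAG, as bound by the macrophage ETS factor PU.1, was in 9.30% (7.02 to 12.2) against 13.0% and 13.6%. TGANTCA, bound by AP-1, was in 4.55% against 3.94% and 6.99%. The E-box CACGTG was in 9.30%, 10.7% and 7.84%. CCGGAAG and GAGGAAG share their last 5 letters but cannot be the same match. A match is a description of the letters only.

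The gene groups in the stretches were counted from 18 lists with 374 genes, all of which were matched in the annotation. Across all lists 35 genes lay in 22 stretches, with 104 wild-type and 46 KAT8-cKO peaks, each stretch counted once. The lists were counted, not tested, and the share to set them beside is the 4.01% of all protein-coding genes. Peak counts named with a gene below are those of its whole stretch.

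Replication-dependent histone genes, which encode the bulk histones made in S phase, had the highest share, 11 of 26 (42.3%), but these 11 lie in only 2 stretches. A member lay within 1 kb of an end of 9 of the 26, and H3c3 and H2bc3 lie in a gap between members. The stretch on chromosome 13 (23738775 to 23762027) covers H1f2, H3c3, H2bc3, H2ac4, H3c2, H4c2, H4c1 and H3c1. Its 5 members had folds of 3.18, 3.42, 3.03, 3.59 and 3.36, all close together. No KAT8-cKO peak passed the threshold there, and 1 weaker peak had a fold of 2.78. The last pair of members lies on both sides of the H4c1 bases printed above, at 23760947 to 23761220 and at 23761450 to 23762027, so that the run just before the start fell between peaks. The weaker KAT8-cKO peak, at 23761353 to 23761563, reached into it.

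The other histone stretch, on chromosome 3 (96220530 to 96247022), covers H2ac20, H2bc21 and H3c14 of the list and neighbours. Its members had folds of 3.49, 4.22, 4.28, 3.60 and 3.76, and 3 KAT8-cKO peaks past the threshold had folds of 3.07, 3.63 and 4.53. Over the whole list of 26, 16 genes had a wild-type peak within 1 kb of an end and 1 had a KAT8-cKO peak past the threshold. Of all protein-coding genes 36.8% had the former and 31.3% the latter. A difference as large as in the histone list was not general. In the same order the counts were 22 and 16 of 28 genes of TLR7 signalling and NF-kB. They were 8 and 8 of 26 immediate early and response factors, and 15 and 18 of 26 respiratory chain genes. Histone genes are short and lie close together, so 1 peak can serve several of them.

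Macrophage identity genes had 4 of 28 in stretches (14.3%), namely Cd68, Cd14, Itgam and Laptm5. Cd68, a glycoprotein of macrophage lysosomes, lies in a stretch on chromosome 11 (69657600 to 69685367) with Mpdu1, the translation helicase Eif4a1, the SUMO protease Senp3 and Tnfsf13. Its 6 members had folds of 2.41 to 3.74 and all lay at a gene end; 3 KAT8-cKO peaks had 2.72 to 2.98. Itgam, the integrin chain CD11b, had 5 members in its stretch on chromosome 7 (128035549 to 128067679), none within 1 kb of a gene end. The gene begins at 128062640, so only the last member lies in its body and the others lie beside it. Their folds were 2.86 to 3.92, and 2 KAT8-cKO peaks had 3.20 and 2.89. The second of these KAT8-cKO peaks (128062380 to 128062765) lay over the annotated beginning of Itgam, where no member lay. The stretch of Laptm5, a lysosomal membrane protein of blood cells, had 4 members and 1 KAT8-cKO peak. That of Cd14, the lipopolysaccharide co-receptor, had 4 and 3. In each, 1 member lay within 1 kb of an end of the named gene, and no KAT8-cKO peak past the threshold overlapped it. The member at Cd14 had a −log10 q of 1.31.

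Lists for T cells, B cells, neutrophils, fibroblasts and unrelated tissues had 0 genes in any dense stretch, of 12, 12, 12, 12 and 20. Wild-type peaks lay within 1 kb of an end of 8 of the 28 macrophage genes, 1 of 12 T cell, 2 of 12 B cell, 2 of 12 neutrophil, 0 of 12 fibroblast and 2 of 20 unrelated genes. The macrophage share was below the 36.8% of all protein-coding genes, so the peaks give no check of the labelled cell type beyond the low counts of the other lists.

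The lists for the pathway that R848 sets off had 0 or 1 gene each in a dense stretch. In lists of this length such counts lie near the 4.01% of all protein-coding genes. In the list of TLR7 signalling and NF-kB, 1 of 28 lay in a stretch, Unc93b1, the chaperone that carries TLR7 to endosomes. Its stretch on chromosome 19 (3907001 to 3935332) also covers Tcirg1, Ndufs8 and Aldh3b1 and had 6 members with folds of 2.42 to 3.20 and 2 KAT8-cKO peaks with 2.57 and 3.25. Among the members the 1 at an end of Unc93b1 had a fold of 2.90 and was overlapped. Chemokine genes had 0 of 19 in a stretch and cytokine genes 1 of 21, Il27, with 5 members and 3 KAT8-cKO peaks. Over those lists a wild-type peak lay at an end of 22 of 28 TLR7 and NF-kB, 6 of 19 chemokine and 5 of 21 cytokine genes. The share of all protein-coding genes was 36.8%. Marked genes of these lists mostly lay outside dense stretches, but only 9.71% of all wild-type peaks past the threshold were members. This is therefore not particular to the pathway.

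Interferon response genes had 2 of 29. Irf9, the DNA-binding subunit of the interferon-activated factor ISGF3, shares a stretch on chromosome 14 (55559777 to 55604381) with Dcaf11, Rnf31 of the linear ubiquitin complex and the proteasome activators Psme1 and Psme2. Its 5 members had folds of 5.77, 2.87, 4.23, 5.04 and 2.91, the highest at Dcaf11. The 4 KAT8-cKO peaks past the threshold had 3.57, 2.61, 4.17 and 2.56, at 4 of the 5 members. Ifi35 shares a stretch with the ribosomal gene Rpl27, with 4 members and 1 KAT8-cKO peak. Immediate early and response factors had 2 of 26, Junb with 4 members and 3 KAT8-cKO peaks and Nr4a1 with 4 and 1.

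Antigen presentation genes had 4 of 18 (22.2%) in 2 stretches. Psmb9, Tap1 and Psmb8, encoding immunoproteasome subunits and a peptide transporter, share a stretch on chromosome 17 (34187246 to 34203317). Its members had folds of 2.82, 2.83, 2.87 and 4.35. The strongest, within 1 kb of an end of Psmb8, was overlapped by the only KAT8-cKO peak past the threshold, with a fold of 3.85. The other stretch, around H2-Ab1, which encodes a chain of the class II molecule, had 4 members and 2 KAT8-cKO peaks. H2-Ab1 lies in a gap between members, and none of the 4 lay in the gene or within 1 kb of its ends.

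Of the 12 genes of the KAT8 complexes, 1 lay in a dense stretch. Phf20 shares it with the splicing factor gene Rbm39 on chromosome 2 (156179978 to 156207972). The members had folds of 3.89, 2.81, 2.85, 3.99, 5.33 and 3.18, and the highest lay over the Phf20 start shown above, with a −log10 q of 11.6. The KAT8-cKO list had 3 peaks past the threshold there, with folds of 3.21, 3.97 and 3.38, the last over the same start. Thus the Phf20 start was marked in both lists.

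Housekeeping groups had 1 to 3 genes each in dense stretches. The respiratory chain had 3 of 26. Sdhb of complex II had 6 members and 2 KAT8-cKO peaks. Uqcrc1 of complex III had 4 and 2, with a fold of 5.04 at its end. Ndufa2 of complex I lies in the same stretch as Cd14, with 4 and 3. The lysosome and autophagy list had 2 of 26, the protease cathepsin B (Ctsb) with 4 and 1 and the autophagy enzyme Atg7 with 6 and 5, although only the last bases of that stretch reach Atg7. Actin and glycolysis genes had 1 of 17, Pfkfb3, an activator of glycolysis, with 5 and 1.

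The largest surpluses of wild-type peaks in the small stretches were at Ptdss2 and Zfp704. Ptdss2, a phosphatidylserine synthase, lies on chromosome 7 (141110863 to 141156167) with 7 members of folds 2.70 to 4.39 and 1 KAT8-cKO peak of fold 3.23. There were 4 weaker KAT8-cKO peaks, with folds of 2.64 to 2.81. Zfp704, a zinc finger gene on chromosome 3 (9429758 to 9475640), had 6 members of folds 2.93 to 3.66, none near a gene end, and 0 KAT8-cKO peaks, with 1 weaker peak of fold 2.61. Each of these members had a −log10 q of at most 5.15. The largest surplus the other way in a small stretch was at Zfp991 on chromosome 4 (147116689 to 147140946), with 5 members of folds 2.78 to 3.63 and 10 KAT8-cKO peaks of folds 2.38 to 3.76. This stretch lies near the large stretches of Zfp978 and Zfp982. The part of reads that match several places in its counts was not tested.

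The tRNA genes lay in 6 stretches with 34 wild-type and 16 KAT8-cKO peaks. A stretch beside the Fc receptor gene Fcgr3 on chromosome 1 (171063862 to 171084591) held 15 of the 30 tRNA genes. Its 7 members had folds of 2.22 to 3.07, and 3 KAT8-cKO peaks had 2.54 to 3.18, with 3 weaker ones. A stretch on chromosome 17 (23513853 to 23536114) with 2 tRNA genes had 7 of each list, and the stretch with Trim41 and Rack1 on chromosome 11 had 6 and 3 with 4 tRNA genes.

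Chromosomes differed in their number of stretches. Chromosome 8 had the most, 52, and 21.1% of its wild-type peaks past the threshold were members, or 11.3% when only stretches of 4 to 7 were counted. Chromosome 1 had 25, with 13.1% and 4.48% in the same order, so most of its members lay in large stretches. The X chromosome had 4 stretches, with 6.65% and 2.75%. In stretches of 4 to 7 the KAT8-cKO peaks per member were between 0.333 on chromosome 12 and 0.625 on chromosome 16 over the autosomes.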

How the data were processed

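H4K16ac was measured by CUT&Tag in 1 wild-type and 1 KAT8-cKO library, and the genotype label set each group. Per the submitters' processing notes, the build was mm10, and Bowtie (version 0.12.8), DiffBind and MACS2 (version 2.2.7.1) are named without their roles. The sources used here do not give peak settings, a control library, read totals or how duplicate and multiply matching reads were treated. The deposited lists give per peak a score (a signal equal to a multiple of −log10 p, not used), a fold ratio over background, and the −log10 of the p-value and of the q-value, all by the authors. Depth was therefore described only by the numbers of peaks.

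Peaks were cut, joined and counted with pandas 2.3.3 and numpy 2.4.6, and intervals (Wilson, 95%) with scipy 1.17.1. Intervals of a ratio of counts come from the Wilson interval of 1 list's share of both counts. Genes were placed by RefSeq coordinates (GRCm38.p6) without strand, so a gene end can be a start or a 3′ end. Listed starts came from the RefSeq promoter table, which covers 17492 genes. Old histone symbols were matched through synonyms (26 entries). Tested on simulated data, the joining code found 200 of 200 planted stretches with 0 wrong, and 0 of 1000 interval counts differed from a direct search.

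Named stretches were the 10 with most members, the 5 longest, the 5 with the largest excess in each direction and the 3 gene-free ones with most members, with up to 4 genes each and up to 4 genes per list. The result of 1 list is not reported here. Other large loci, promoters compared within arrays, tRNA stretches and further genes were chosen after their values were seen. The members and gene lists were chosen with earlier results of these data known. Alternatives on gap, minimum size, threshold, overlap and window are given in the closing section. No genome sequence was used here, so sequences of the peaks themselves are not shown.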

Additional observations from a re-analysis of the deposited data

How the results depend on the processing

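The number of stretches was 491 and changed with the rule: 89 with a gap of 5 kb, 1327 with 25 kb, 1404 with 3 or more peaks, 95 with 6 or more, 3274 without a q-value threshold, 136 with the −log10 q raised to 2, and 225 with the strongest 20000 peaks of each list. In the same order the KAT8-cKO peaks per wild-type peak, 0.569 as reported, were 0.858, 0.553, 0.489, 0.803, 0.533, 0.762 and 0.719. The members overlapped, 46.4% as reported, were 75.6%, 39.1%, 40.7%, 63.9%, 34.5%, 62.4% and 58.2%. The members at gene ends, 26.1% as reported, were 11.3%, 31.6%, 28.8%, 17.9%, 21.9%, 21.0% and 23.5%. Counting KAT8-cKO peaks of any strength gave a ratio of 0.834 and an overlap of 59.8%, and asking for 50% of a member to be covered gave 40.2%. Windows of 500 bp and 3 kb gave 21.5% and 38.3% at gene ends. With stretches set by the KAT8-cKO list the direction reversed, to 1.58 KAT8-cKO peaks per wild-type peak. Alternatives chosen after seeing the data left out stretches of 8 or more peaks, which gave 0.457, 38.0% and 30.1%, and took stretches of 4 to 7 from the KAT8-cKO list, which reversed the ratio to 1.88. Leaving out chromosome X, or every peak whose −log10 q reached 50, kept the 3 shares and ratios within their intervals and the stretches at 487 and 490.

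No paired analysis was possible because each group has 1 library. For the same reason there was no replicate to leave out. The part that sequencing depth plays in which peaks pass the threshold was not tested, since read totals were not used here.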

Other observations

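Of the 318 stretches set by the KAT8-cKO list, 209 touched no wild-type stretch. They held 932 KAT8-cKO and 373 wild-type peaks past the threshold, and 23 of them held no wild-type peak past it (6 held none of any strength). The wild-type counterpart was 375 stretches with 1677 wild-type and 598 KAT8-cKO peaks. The largest had 9 KAT8-cKO and 5 wild-type peaks, over the zinc finger gene Zfp992 on chromosome 4 (146440463 to 146484430). Another, with 8 and 1, covered Zfp980 on the same chromosome (145679521 to 145710997). Like Zfp991, both lie on the part of chromosome 4 that holds the large Zfp978 and Zfp982 locus. The part of reads that match several places was not tested there either. A stretch of 8 and 5 on chromosome 17 (35889273 to 35944077) covered the RNA helicase gene Dhx16, the tubulin acetyltransferase gene Atat1, the mitochondrial ribosome gene Mrps18b and Ppp1r10. These stretches were chosen for many KAT8-cKO peaks, so their direction is a description.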
